A study of Mus musculus with 14 samples.

Results

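The 10 genes described here encode parts of the Notch pathway: the receptors Notch1, Notch2 and Notch3, the ligands Dll1, Dll3, Dll4, Jag1 and Jag2, and the effectors Hes1 and Hey1. They were chosen by symbol, and all 10 were found among the 32926 gene symbols of the count table. RNA was sequenced from mouse small cell lung cancer cells grown in Hites medium, in 14 libraries that fall into 6 groups. The cells came from adult lung tumours of mixed-strain mice carrying CGRPCreER/+ together with Rbf/f, P53f/f and Ptenf/f, so every group shares these alleles. CGRPCreER places an inducible Cre under the control of a neuroendocrine gene, and the mice had been injected with TM, a term the labels do not spell out, with 2 months named beside it. The groups are neuroendocrine (NE) cells, non-neuroendocrine (Non-NE) cells, each with 3 libraries, and NE cells labelled as overexpressing YAP5SA at days 0, 3, 7 and 21, with 2 libraries a day. YAP5SA is a mutant of the transcriptional coactivator YAP that escapes inhibition by Hippo signalling, and here it comes from a Tet-onYAP5SA transgene switched by Rosa26rtTA. The source text of day 0 replicate 1 lists neither transgene. In 6 labels the number in the name of the p53 allele rises from sample to sample, and it is read here as P53f/f. No label says that replicates were separate lines or cultures, so p-values measure only the spread between these libraries. No library without the transgene was taken at days 3, 7 or 21, so days in culture and YAP5SA cannot be told apart.

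Notch receptors sit in the cell membrane and are cut when a ligand on a neighbouring cell pulls on them. The freed intracellular part enters the nucleus, binds RBPJ and switches on target genes such as Hes1 and Hey1, which encode repressors of neural and neuroendocrine genes. Dll1, Dll4, Jag1 and Jag2 activate receptors on neighbouring cells. Dll3 differs: it stays largely inside the cell, does not activate receptors on neighbours and inhibits Notch signalling in the cell that makes it. In small cell lung cancer, Dll3 is known as a surface antigen of neuroendocrine tumour cells.

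Levels are counts per 1000000 (CPM), scaled over all 14 libraries, which held 6730816 to 10659524 counts. NE replicate 2 had more counts than day 0 replicate 1 in 0 of 32926 genes and held 85.7% of its counts, with a mean squared deviation from binomial thinning of 1.03 over 12673 genes. These 2 libraries therefore share reads, and the NE and day 0 groups are not independent. Yap1 checked the labels: it stood at 7.13 to 7.87 CPM at day 0, at 1063 to 1233 CPM at day 3 and at 207 to 219 CPM at day 21. A list of 7 neuroendocrine markers summed to 1406 to 1586 CPM in NE, with Calca alone at 0, and to 58.5 to 417 CPM in Non-NE, where Ncam1 alone was at 57.7 to 411 CPM. Ncam1 went the other way from the list, with a mean of 271 CPM in Non-NE against 36.1 CPM in NE. Over the days the list stood at 1584 to 1620.0 CPM at day 0, 1281 to 1371 at day 3, 828 to 893 at day 7 and 585 to 607 at day 21. Within it Ncam1 rose, from a mean of 62.3 CPM at day 0 to 152 CPM at day 21. Syp rose from 138 to 179 CPM by day 3 and then fell to 42.4 CPM at day 21. A list of 8 fibroblast markers summed to 2.99 to 6.39 CPM in NE and to 9279 to 17396 CPM in Non-NE, where 6 of the 8 averaged at least 1 CPM and Thy1 was at 0. The list of 8 pericyte and smooth muscle markers summed to 4.34 to 8.31 CPM in NE and to 206 to 3524 CPM in Non-NE. In Non-NE 2 of the 8 averaged at least 1 CPM, against 4 in NE. Acta2, at 15.0 to 3174 CPM, and Pdgfrb, at 190 to 867 CPM, made up nearly all of the Non-NE sum. Des, Abcc9 and Cspg4 went the other way, and Kcnj8 was at 0 in both groups. Of 8 endothelial markers, Cdh5 and Cldn5 were at 0 in both groups, and the list summed to 214 to 390 CPM in NE and to 0.611 to 2.55 CPM in Non-NE. Vwf made up nearly all of the NE sum, at 213 to 389 CPM. Vwf also carried the list over the days, with 366 to 380.2 CPM in the list at day 0 and 114 to 139 at day 21. The fibroblast list went from 2.96 to 4.78 CPM at day 0 to 8.13 to 9.76 at day 7 and 29.8 to 38.0 at day 21. Thy1, at 0 in Non-NE, made up most of the day 21 sum, at 22.9 to 29.3 CPM. Col1a1 averaged 3.60 CPM at day 21 and 9967 CPM in Non-NE. The pericyte and smooth muscle list went from 7.40 to 8.16 CPM at day 0 to 14.8 to 14.9 at day 7 and 42.4 to 43.5 at day 21. A list of 8 leukocyte markers summed to 6.94 to 7.50 CPM at day 0 and to 114 to 136 CPM at day 21, with Ptprc at 0 on both days. Csf1r made up nearly all of the day 21 sum, at 103 to 126 CPM, and was at 0 at day 0. Lyz2 went the other way, from a mean of 4.89 CPM at day 0 to 1.25 CPM at day 21. The part of other cell types in the results was not tested, and in bulk RNA fewer cells that make a transcript cannot be told apart from less of it per cell.

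Promoter sequence is shown for the members whose 250 bases before the start site hold GGAATG, a core of sites for TEAD, the DNA-binding partner of YAP, because YAP5SA was expressed in the time course. RefSeq promoter entries (GRCm38.p6, the mm10 build) were found for 8 of the 10 genes, and the effectors Hes1 and Hey1 were not searched. GGAATG, read on both strands, occurred in 2 of them, and in 12.6% of all 32851 promoters of the same length. Each 30-base stretch is printed 5′ to 3′ on the gene's own strand, the minus strand in both, with the matches in capitals. On the opposite strand the core reads CATTCC, as in Notch1.
Notch1: tgccCATTCCatacacccctcCATTCCtcc
Dll3: acatgatagagaGGAATGcacctgtatttc
The Notch1 stretch lies at chr2:26504030-26504059 with 2 matches, 233 and 216 bases before the RefSeq start. It is outside any GENCODE M21 exon but inside the span GENCODE M21 gives to Notch1, chr2:26457903-26516663. The Dll3 stretch lies at chr7:28302002-28302031 with 1 match 234 bases before the RefSeq start, in sequence that GENCODE M21 counts as untranslated exon of Dll3. TGGGAA, a core of RBPJ sites, was in none of the 8 genes' windows and in 21.6% of all promoters. No match overlapped another, and a match is a description of letters only.

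Notch2 was the receptor that differed most clearly between the states. In NE it measured 23.3, 14.5 and 8.84 CPM, and in Non-NE 165, 175 and 282 CPM. The lowest Non-NE library lay far above the highest NE library. Notch2 was 12.9-fold higher in Non-NE (log2 change 3.69, SE 0.43, adjusted p = 0.000817 in edgeR's quasi-likelihood test). The YAP5SA libraries held 14.2 and 13.2 CPM at day 0, 26.5 and 25.7 CPM at day 3, 53.0 and 54.3 CPM at day 7, and 85.6 and 103 CPM at day 21. No library of a later day overlapped one of an earlier day. Notch2 rose 1.89-fold by day 3, a further 2.09-fold from day 3 to day 7 and 1.77-fold from day 7 to day 21, and each step passed the test. From day 0 to day 21 the rise was 6.997-fold (log2 change 2.81, SE 0.11, adjusted p = 1.48e-17). The day 21 level stayed 2.19-fold below Non-NE (log2 difference -1.13, SE 0.35, adjusted p = 0.0195), a call lost without day 21 replicate 1 (adjusted p = 0.132) or replicate 2 (0.0700). The gene spans chr3:98013527-98150361 on the plus strand.

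Notch1 was highest in Non-NE, with a wide spread there. Its Non-NE libraries measured 22.6, 2.08 and 14.01 CPM. NE libraries measured 0.772, 0.109 and 1.92 CPM. The groups did not overlap, but Non-NE replicate 2 lay close to the highest NE library. The fitted rise in Non-NE was 13.2-fold (log2 change 3.72, SE 1.13, adjusted p = 0.0358), but the call was lost without NE replicate 1, NE replicate 2, Non-NE replicate 1 or Non-NE replicate 3 (adjusted p = 0.0782 to 0.110). In the YAP5SA libraries Notch1 had 3 counts over both day 0 libraries, 2 over those of day 3, 2 over those of day 7 and 0 at day 21. Its counts were too low to be tested across days, and 0 counts at day 21 allow up to 0.144 CPM at 3 counts over the group. Non-NE held at least 83.9-fold more Notch1 than day 21, from 286 counts against that floor. Notch1 (chr2:26457903-26516663, minus strand) overlaps 0610009E02Rik on the other strand, which had 2 to 8 counts per library.

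Notch3 was lower in Non-NE and dipped at day 7 of the time course. It measured 4.83, 4.16 and 5.43 CPM in NE and 0.826, 0.733 and 2.55 CPM in Non-NE, with no overlap. It was 3.51-fold lower in Non-NE (log2 change -1.81, SE 0.59, adjusted p = 0.0441). This call was lost without any 1 of the NE libraries, without Non-NE replicate 1 or 2 (adjusted p = 0.0899 to 0.138) and with no count filter (0.0827). Over the days it fell from 4.12 and 3.24 CPM to 2.43 and 2.02 CPM at day 3 and to 0.610 and 0.508 CPM at day 7, then stood at 6.95 and 7.85 CPM at day 21. Day 7 was 6.41-fold below day 0 (log2 change -2.68, SE 0.37, adjusted p = 6.22e-07). Day 21 was 13.1-fold above day 7 (log2 change 3.71, SE 0.32, adjusted p = 8.56e-10) and 2.04-fold above day 0 (log2 change 1.03, SE 0.21, adjusted p = 0.000134). Pericytes and smooth muscle cells are known for Notch3. Their marker list went from 14.8 to 14.9 CPM at day 7 to 42.4 to 43.5 CPM at day 21. Acta2 stood then at 16.2 to 19.7 CPM and Pdgfrb at 14.7 to 17.5 CPM. Within the list, Myh11 fell over this step from a mean of 5.90 to 3.13 CPM, and Cspg4 from 0.457 to 0.191 CPM. From day 0 to day 7 the list rose from 7.40 to 8.16 CPM to 14.8 to 14.9 CPM, while Notch3 fell. In Non-NE, where Notch3 was low, the list summed to 206 to 3524 CPM, nearly all of it Acta2 and Pdgfrb. The part of such cells in the change of Notch3 was not tested. The first step, day 3 against day 0 (adjusted p = 0.0260), was lost without day 0 replicate 1 (0.217) or day 3 replicate 2 (0.158) and in DESeq2 (0.131). The gene spans chr17:32120820-32166852 on the minus strand.

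**Figure D1:**
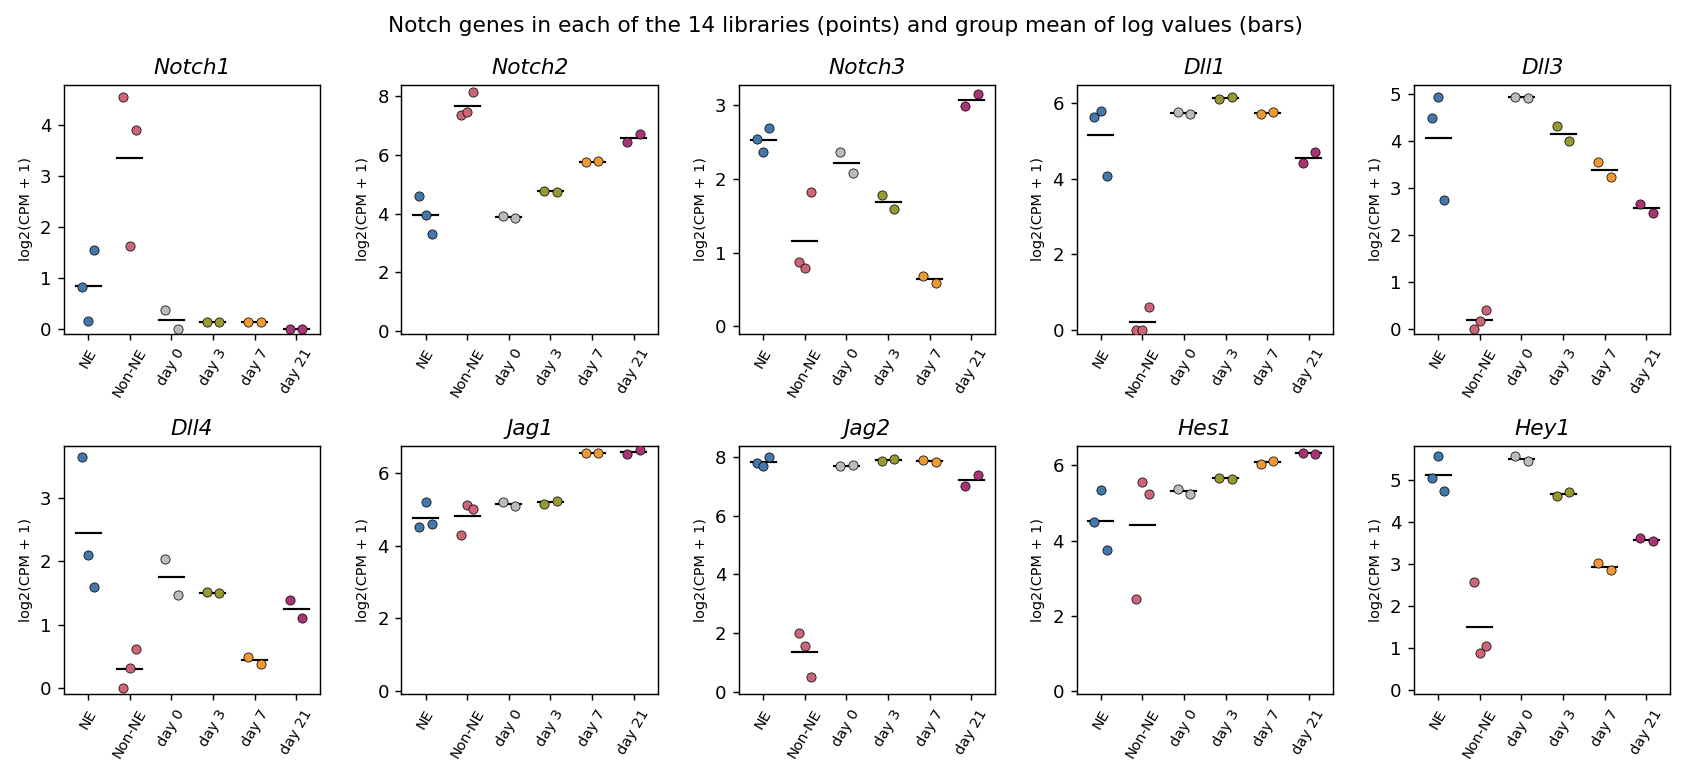
Level of each of the 10 Notch genes as log2(CPM + 1) in the 6 groups, with a panel per gene, a point per library and a bar at the group mean of the log values. Notch2 libraries climb from 13.2 to 14.2 CPM at day 0 to 85.6 to 103 CPM at day 21 and 165 to 282 CPM in Non-NE, while Dll3 and Jag2 are lowest in Non-NE.

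Per kilobase of exon, Notch2 was the most abundant of the 3 receptors in every library. The 3 receptors together summed to 1.63 to 2.81 CPM per kb in NE and to 16.4 to 27.4 CPM per kb in Non-NE. Notch2 made up 50.4% to 76.8% of that sum in NE and 90.0% to 98.6% in Non-NE, and Notch3 made up 21.2% to 41.3% in NE. From day 0 to day 21 the receptor sum went from 1.63 to 1.84 to 8.80 to 10.6 CPM per kb. Over the days the share of Notch2 was highest at day 7, at 98.3% to 98.6%, where Notch3 was lowest.

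Dll3, the inhibitory ligand, was near 0 in Non-NE and fell at every step of the time course. NE libraries held 21.4, 29.6 and 5.64 CPM, with replicate 3 well below the others. Non-NE libraries held 0, 0.122 and 0.318 CPM, which is 4 counts in all (pooled 0.169 CPM, 95% exact Poisson interval 0.0461 to 0.433). The fitted level was 109.6-fold lower (log2 change -6.78, SE 1.00, adjusted p = 0.00209), and it rests on those 4 counts. Dll3 stood at 29.7 and 28.9 CPM at day 0, 18.9 and 14.9 CPM at day 3, 10.67 and 8.33 CPM at day 7, and 5.33 and 4.55 CPM at day 21. No later day overlapped an earlier one. The fall was 1.75-fold by day 3, 1.74-fold more by day 7 and 1.91-fold more by day 21, each past the test. The neuroendocrine marker list went from 1584 to 1620.0 CPM at day 0 to 585 to 607 CPM at day 21, although Ncam1 within it rose. The part of that shift in the fall was not tested. Dll3 fell 5.82-fold in all (log2 change -2.54, SE 0.16, adjusted p = 4.75e-13). Day 21 still held 27.7-fold more than Non-NE (log2 difference 4.79, SE 0.74, adjusted p = 0.000411). The Dll3 gene spans chr7:28293553-28302238 on the minus strand.

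Dll1, an activating ligand, shared the low level in Non-NE but not the early fall. It measured 48.9, 53.9 and 15.97 CPM in NE and 0, 0 and 0.531 CPM in Non-NE, the last being 5 counts. The log2 change was -7.55 (SE 1.04, adjusted p = 0.00168), and without Non-NE replicate 3, which held all 5 counts, the group was at 0. Under YAP5SA it went from 53.7 and 51.2 CPM at day 0 up to 67.8 and 71.1 CPM at day 3, back to 51.0 and 53.3 CPM at day 7, and down to 20.2 and 25.3 CPM at day 21. The rise by day 3 was 1.32-fold (log2 change 0.40, SE 0.09, adjusted p = 0.000943). Day 7 did not differ detectably from day 0 (log2 change 0.00, 95% interval -0.18 to 0.19). Intervals of log2 changes here and below use a normal approximation and are too narrow for so few libraries. Day 21 was 2.27-fold below day 0 (log2 change -1.18, SE 0.11, adjusted p = 2.38e-10). A930024N18Rik, on the opposite strand of Dll1 (chr17:15367354-15376872, minus strand), had 0 to 54 counts per library, and reads of the 2 genes cannot be told apart if strand was not used in counting.

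Jag2 was the most abundant ligand of the NE libraries per kilobase of exon. It measured 222, 207 and 259 CPM in NE and 2.97, 1.95 and 0.425 CPM in Non-NE, 138-fold lower (log2 change -7.11, SE 0.59, adjusted p = 0.000206). It stood at 208 and 212 CPM at day 0, 233 and 243 CPM at day 3, and 238 and 230 CPM at day 7. Neither day 3 nor day 7 passed the test against day 0 (adjusted p = 0.110 and 0.0900). At day 21 it measured 129 and 168 CPM, below every earlier library. The fall from day 0 to day 21 was 1.39-fold (log2 change -0.48, SE 0.09, adjusted p = 3.09e-05), and the log2 change was -0.31 without day 21 replicate 1 and -0.68 without replicate 2. Day 21 was 88.5-fold above Non-NE (log2 difference 6.47, SE 0.42, adjusted p = 1.17e-06). Its gene is at chr12:112907819-112929776, minus strand.

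Jag1, the other Jagged ligand, did not differ detectably between NE and Non-NE and rose under YAP5SA. NE libraries held 21.8, 36.1 and 23.1 CPM and Non-NE libraries 18.8, 33.7 and 31.2 CPM, so the groups overlapped. The log2 difference was 0.01 with a 95% interval from -0.65 to 0.66 (adjusted p = 0.989). At day 0 it measured 36.4 and 33.3 CPM and at day 3 34.8 and 36.8 CPM. At day 7 it was at 93.8 and 93.9 CPM and at day 21 at 91.4 and 99.4 CPM. The step from day 3 to day 7 was the one that passed the test, a 2.66-fold rise (log2 change 1.41, SE 0.09, adjusted p = 7.65e-13), and day 21 was 2.78-fold above day 0 (log2 change 1.47, SE 0.09, adjusted p = 8.47e-14). Day 21 was 3.41-fold above Non-NE (log2 difference 1.77, SE 0.20, adjusted p = 6.17e-05). Its gene is at chr2:137081456-137116644, minus strand.

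Dll4, a ligand best known from blood vessels, was the lowest of the ligands in NE per kilobase of exon. Of the endothelial markers, Cdh5, Kdr, Emcn and Cldn5 were at 0 there, and Vwf averaged 324 CPM. NE libraries held 11.5, 3.28 and 2.02 CPM and Non-NE libraries 0, 0.244 and 0.531 CPM, 7 counts in all. The log2 change was -4.29 (SE 1.05, adjusted p = 0.0159), lost without Non-NE replicate 2 (0.0594). It was -3.22 without NE replicate 1, the highest library, and -5.26 without Non-NE replicate 3. It stood at 3.09 and 1.76 CPM at day 0, 1.85 and 1.84 CPM at day 3, 0.407 and 0.305 CPM at day 7, and 1.62 and 1.16 CPM at day 21. Like Notch3 it was lowest at day 7, 6.56-fold below day 0 (log2 change -2.71, SE 0.49, adjusted p = 2.82e-05). Day 21 was 3.84-fold above day 7 (log2 change 1.94, SE 0.56, adjusted p = 0.00572), a call lost without day 21 replicate 1 (0.0550) or day 7 replicate 2 (0.0578). Day 21 against day 0 missed the threshold (log2 change -0.77, SE 0.36, adjusted p = 0.0566), and it passed without day 0 replicate 2 (0.0169). Dll4 (chr2:119325784-119335962, plus strand) has Gm14207 on the other strand at 0 to 14 counts per library.

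The ligand sum per kilobase of exon was 47.5 to 59.9 CPM per kb in NE and 3.66 to 6.17 CPM per kb in Non-NE. Jag2 made up 49.5% to 78.4% of it in NE, and Jag1 6.49% to 10.3%. In Non-NE Jag1 made up 88.3% to 93.7%, although its own level did not differ detectably there. At day 21 the sum was 41.3 to 49.1 CPM per kb against 58.9 to 60.1 at day 0, with Jag1 at 34.8% to 38.0% against 9.72% to 10.4% and Dll3 at 3.25% to 4.53% against 17.2% to 17.3%.

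Hes1 and Hey1, both targets of the cleaved receptor, went in opposite directions to day 7, and both rose from day 7 to day 21. Hes1 measured 21.4, 39.8 and 12.5 CPM in NE and 4.46, 45.9 and 36.6 CPM in Non-NE, where replicate 1 was lower than every other library of the series. The groups overlapped, and the log2 difference was 0.20 with a 95% interval from -1.37 to 1.78 (adjusted p = 0.857). Under YAP5SA Hes1 rose from 40.5 and 36.9 CPM at day 0 to 50.04 and 48.8 CPM at day 3, 64.7 and 69.0 CPM at day 7, and 79.6 and 78.2 CPM at day 21. Each day lay above the one before. The rise was 1.27-fold, 1.38-fold and 1.19-fold over the 3 steps and 2.07-fold in all (log2 change 1.05, SE 0.09, adjusted p = 7.95e-11). The first step was lost without day 0 replicate 2 (adjusted p = 0.0710) and the last without day 7 replicate 1 (0.162). The Hes1 gene is at chr16:30064384-30067796, plus strand.

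Hey1 measured 32.2, 46.7 and 25.99 CPM in NE and 4.96, 0.855 and 1.06 CPM in Non-NE, with no overlap. It was 16.3-fold lower in Non-NE (log2 change -4.03, SE 0.72, adjusted p = 0.00464). The log2 change was -5.19 without Non-NE replicate 1 and -3.62 without Non-NE replicate 2. Non-NE replicate 1, with the lowest Hes1, had the highest Hey1 and Notch1 of its group. Over the days Hey1 fell from 47.1 and 42.6 CPM to 23.7 and 25.3 CPM at day 3 and to 7.12 and 6.30 CPM at day 7, and then stood at 11.2 and 10.8 CPM at day 21. Day 7 was 6.61-fold below day 0 (log2 change -2.72, SE 0.13, adjusted p = 1.38e-15), and day 21 was 1.65-fold above day 7 (log2 change 0.72, SE 0.16, adjusted p = 0.000693). Over the whole course the fall was 4.01-fold (log2 change -2.00, SE 0.12, adjusted p = 9.21e-14). Per kilobase of exon, Hey1 made up 41.8% to 42.0% of the effector sum at day 0 and 7.90% to 8.09% at day 21. The Hey1 gene is at chr3:8663359-8667256, minus strand.

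**Figure D2:**
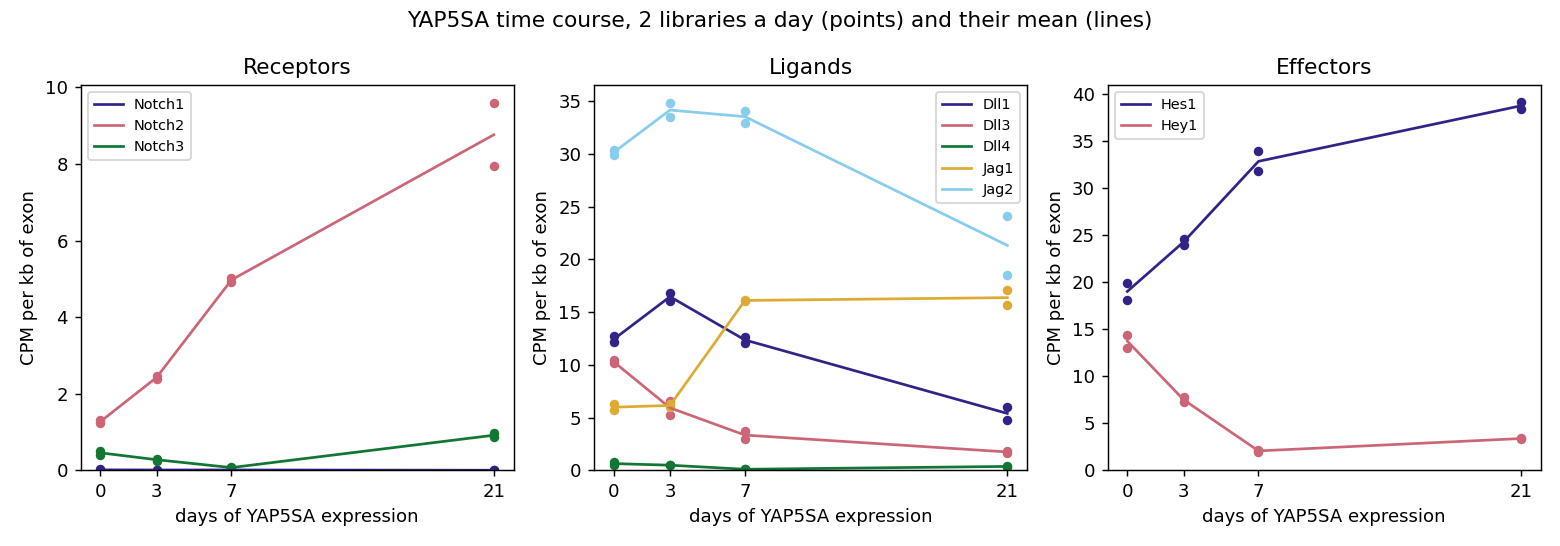
Level per kilobase of exon (CPM per kb, vertical axis) against day of the YAP5SA series (horizontal axis), in panels by role, with a point per library and lines through the mean of the 2 libraries a day. Notch2 and Hes1 rise at each step, Dll3 falls at each step, and Notch3, Dll4 and Hey1 are lowest at day 7.

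The contrast of receptors and effectors with Dll3 was taken as a ratio per kilobase of exon in each library, given without a test. Hes1 was 1.79 to 1.91 times as high as Dll3 at day 0, 3.71 to 4.59 times at day 3, 8.49 to 11.6 times at day 7 and 20.9 to 24.0 times at day 21. In NE its ratio was 1.40 to 3.09. The ratio of Notch2 to Dll3 went from 0.121 to 0.126 at day 0 through 0.372 to 0.457 and 1.31 to 1.72 to 4.24 to 6.001 at day 21, so the receptor passed the inhibitory ligand between days 3 and 7. For both genes the libraries of successive days did not overlap. The ratio of Hey1 to Dll3 moved less, at 1.29 to 1.38 at day 0, 1.10 to 1.48 at day 3, 0.582 to 0.660 at day 7 and 1.84 to 2.06 at day 21. Hey1 and Dll3 kept about the same ratio to day 3, and Hey1 stood below Dll3 at day 7. Notch3, by contrast, went from 0.0395 to 0.0489 of Dll3 at day 0 to 0.0201 to 0.0215 at day 7 and 0.459 to 0.607 at day 21, and Notch1 had at most 0.00244 of the Dll3 level on any day. Jag1 stood at 0.564 to 0.599 of Dll3 at day 0 and at 8.38 to 10.68 times Dll3 at day 21. In Non-NE the ratios rest on 4 Dll3 counts, with 1 library at 0, so no comparison is drawn from them.

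**Figure D3:**
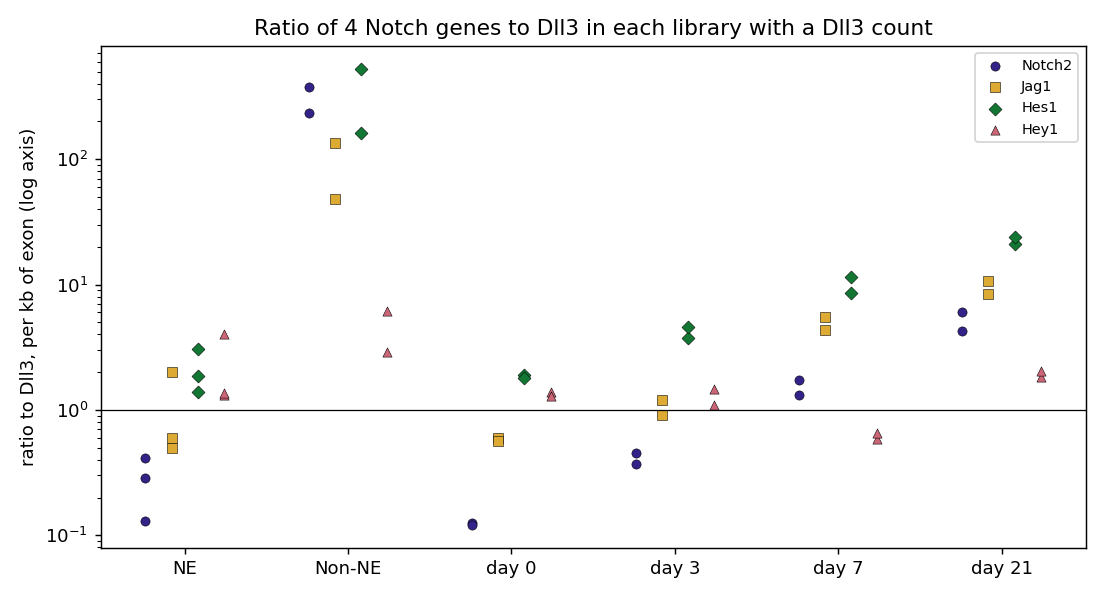
Ratio of Notch2, Hes1, Hey1 and Jag1 to Dll3 per kilobase of exon (vertical log axis, line at a ratio of 1) in each library with a Dll3 count, by group. Hes1 climbs from 1.79 to 1.91 at day 0 to 20.9 to 24.0 at day 21, and Notch2 crosses 1 between days 3 and 7. The Non-NE points rest on 4 Dll3 counts.

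Counted over the 10 genes, 8 passed the test between Non-NE and NE, 2 higher and 6 lower. Among all 12966 genes tested, 42.8% passed, 20.0% higher and 22.8% lower. The low counts of Notch3, Dll1, Dll3, Dll4, Jag2 and Hey1 in Non-NE mean that these genes passed the count filter through NE, where they were high. Notch1 likewise passed the filter through Non-NE, where it was high. Of the 8, Notch2 alone was well counted in both groups, so the count of 8 depends on the filter. Without NE replicate 2, which shares reads with day 0 replicate 1, 6 passed, 1 higher and 5 lower, since Notch1 and Notch3 were lost. Of 9 genes tested across days, 6 passed at day 3 against day 0 (3 higher, 3 lower), where 48.6% of all 13996 genes did (26.2% higher, 22.4% lower). At day 7 against day 3, 8 passed (3 higher, 5 lower), against 55.6% of all genes (29.5% higher, 26.1% lower). At day 21 against day 7 it was again 8 (5 higher, 3 lower), against 50.3% (26.1% higher, 24.2% lower). Day 7 against day 0 gave 7 (3 higher, 4 lower), against 71.0% (37.2% higher, 33.8% lower). Day 21 against day 0 gave 8 (4 higher, 4 lower), against 71.7% (37.7% higher, 34.0% lower). Without day 0 replicate 1, whose label lists no transgene, these counts were 5 at day 3, 7 at day 7 and 8 at day 21. Same-day libraries differed little (biological coefficient of variation 0.0548, against 0.399 for NE and Non-NE). With 1 spread estimated by edgeR over all 14 libraries, 4 genes passed at day 7 and 4 at day 21 against day 0, the last being Notch2, Dll3, Jag1 and Hey1. At day 3, 0 passed in that fit, 1 at an unadjusted p under 0.05, and DESeq2 on the 8 libraries called 5.

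**Figure D4:**
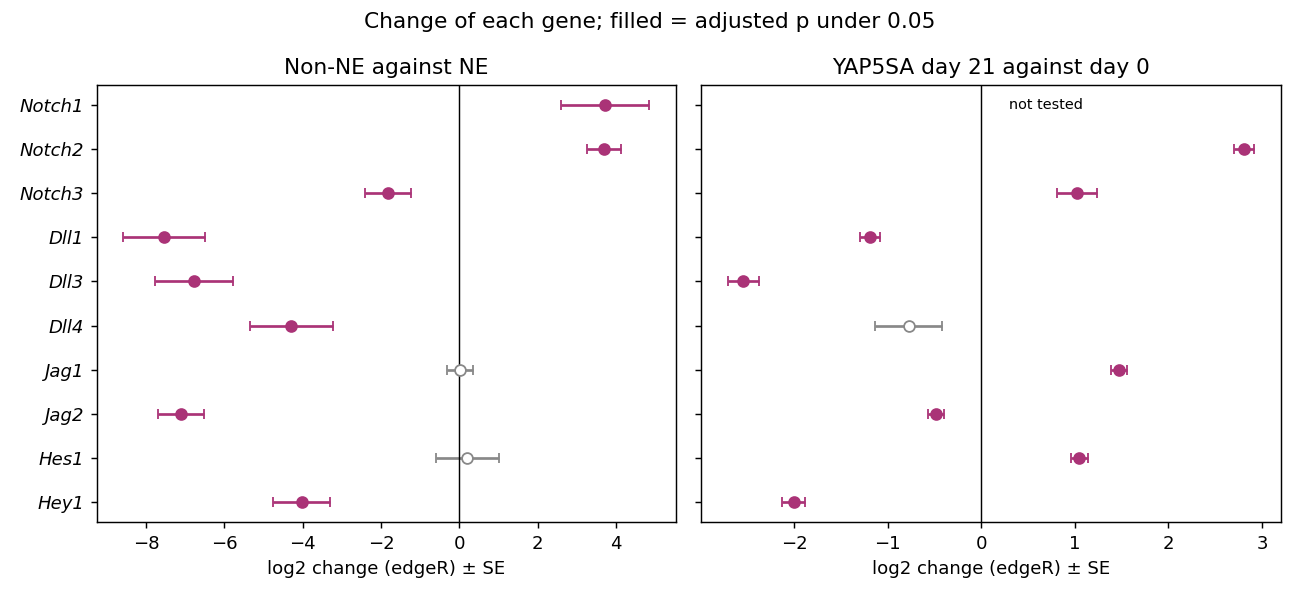
Log2 change with its standard error in edgeR for each of the 10 genes, in panels for the comparisons, with filled points for genes past an adjusted p of 0.05. Between Non-NE and NE 2 genes are higher and 6 lower, and between days 21 and 0 4 are higher and 4 lower.

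Day 21 was next set against Non-NE, and its change from day 0 against the Non-NE change from NE, in a fit without NE replicate 2. Against Non-NE, 8 of 10 genes passed, 6 higher at day 21 and 2 lower, where 55.3% of all 14820 genes passed (30.8% higher, 24.5% lower). Notch1 and Notch2 were lower at day 21, and Notch3, Dll1, Dll3, Jag1, Jag2 and Hey1 were higher. Dll4 was 4.72-fold higher at day 21 but missed the threshold (adjusted p = 0.0582). The Dll4 difference passed in DESeq2 (0.0400), by library totals (0.0444) and without Non-NE replicate 3 (0.0464). Hes1 was 2.70-fold higher at day 21 but missed the threshold (adjusted p = 0.0722). It passed without Non-NE replicate 1 (0.00493) or replicate 2 (0.0359), by library totals (0.0452) and in DESeq2 (0.0392). The library sets and the cell states cannot be told apart here. The 2 changes differed in 6 of 10 genes, all with the higher value at day 21, where 32.8% of all genes differed, 21.2% toward higher and 11.6% toward lower. These were the 5 ligands and Notch3. In Non-NE, Dll1, Dll3 and Dll4 had 5, 4 and 7 counts in all, and Jag2 had 38. Dll1, Dll3 and Dll4 therefore passed the count filter through other groups, where they were higher. Day 21 against Non-NE and the difference of changes rest on those few counts for these genes. Among the 6, Dll1 and Jag2 differed most, with a log2 difference of 5.99 (SE 0.93, adjusted p = 0.000933) and 6.66 (SE 0.57, adjusted p = 1.63e-05). The Dll1 value ran from 4.96 to 10.1 when a library was left out. Dll3 fell in both, by 3.68 less on the log2 scale under YAP5SA (SE 0.95, adjusted p = 0.0149). For Notch1, at 0 counts at day 21, the fitted difference of -6.83 missed the threshold (adjusted p = 0.106), was -3.25 without day 0 replicate 1, and passed in DESeq2 (0.0211) and without Non-NE replicate 2 (0.0244). For Notch2 the difference of -0.90 (95% interval -1.92 to 0.12, adjusted p = 0.218) missed the threshold, and without NE replicate 1 it was -1.77 (0.00899). Hes1 differed by 0.24 with an interval from -1.59 to 2.08. Hey1 differed by 1.72 (interval 0.26 to 3.19, adjusted p = 0.106), and by 2.86 without Non-NE replicate 1 (5.49e-05). Leaving out day 0 replicate 2 left 2 of the 6 calls, Dll1 and Jag2, and leaving out day 0 replicate 1 left 4. The Dll4 difference of 3.72 was lost without NE replicate 1 (1.97, adjusted p = 0.166), Non-NE replicate 2, or any 1 library of day 0 or day 21 (adjusted p = 0.0659 to 0.134). The Jag1 difference was also lost without day 21 replicate 2 (adjusted p = 0.0685).

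Of 58 other genes of the pathway, 50 could be tested between Non-NE and NE, and 6 were higher and 12 lower. That is 36.0%, against 42.8% of all genes, and the median log2 change was 0.04 against -0.02 for all genes. Among the partners of the nuclear complex the Mastermind coactivators split: Maml1 was 3.43-fold higher in Non-NE, Maml2 went from 0 to 0.328 CPM in NE to 37.2 to 53.5 CPM, and Maml3 was 2.51-fold lower. Rbpj, the DNA-binding partner itself, did not differ detectably (log2 change -0.07, adjusted p = 0.918). Of 10 genes for receptor cleavage, Psen2 and Aph1b, both subunits of γ-secretase, were 3.03-fold and 2.37-fold lower. Mfng, a Fringe enzyme that glycosylates receptors, measured 56.1, 71.5 and 28.7 CPM in NE and had 0 counts in Non-NE, at least 411-fold lower at 3 counts over the group. Neurl1a and Neurl1b, ubiquitin ligases for ligand uptake, were 7.06-fold and 7.36-fold lower. Of the receptor turnover genes, Dtx2 and Dtx4 were 2.57-fold and 2.52-fold higher, and Dtx3 and Fbxw7 2.05-fold and 2.53-fold lower. Dner, a neuronal ligand-like protein, went from 111 to 166 CPM in NE to 0.122 to 0.531 CPM, and Dlk2 was 9.60-fold higher in Non-NE. Nrarp, a target gene and feedback inhibitor, was 29.6-fold lower, and Hes6, which counters HES1, was 7.74-fold lower.

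Between days 21 and 0, 51 of these genes could be tested, and 22 were higher and 17 lower. That is 76.5%, against 71.7% of all genes, and both medians were 0.02 on the log2 scale. Maml2 rose from 0.185 to 0.281 CPM at day 0 to 11.2 to 13.7 CPM at day 21, with adjusted p = 2.26e-13. Epn2, an adaptor for ligand uptake, rose 3.50-fold and was highest at day 7, at 434 CPM in each library. Aph1c rose 10.4-fold and Dtx2 2.32-fold. Aph1c and Aph1b are close paralogues, so their counts are uncertain. The Fringe enzymes Lfng and Mfng fell 3.39-fold and 3.86-fold. Neurl1a, Neurl1b and Fbxw7 fell 2.25-fold, 2.61-fold and 2.05-fold. Dner fell 5.72-fold, from 161 to 166 CPM to 27.6 to 28.5 CPM, and Hes6 fell 4.61-fold. Rbpj again did not differ detectably (log2 change 0.02, adjusted p = 0.863).

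Regulators tied to Notch in these tumours are given beside the members. Rest, a repressor of neuronal genes, averaged 0.325 CPM in NE, 65.0 in Non-NE, 0.0926 at day 0, 1.69 at day 3, 14.4 at day 7 and 32.2 at day 21. In its order of groups Rest was like Notch2, low in NE and day 0 and highest in Non-NE. Insm1 fell to 65.7 CPM at day 21 from 407 CPM at day 0. Myc ranged from 29.5 to 664 CPM across NE libraries, with the lowest value in the library that shares reads with day 0, and Neurod1 did not pass 0.966 CPM in any library.

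The genes most like 3 members were ranked by Pearson's r of log2(CPM + 1) over 14 libraries among 12574 genes, as a description. Panx2 (r = 0.99), Syt1 (0.99) and Fam19a4 (0.98) were most like Dll3. Kctd10, Sphk1 and Ablim1 (0.98 each) were most like Notch2, with Kctd10 at 36.7 CPM at day 0, 136 CPM at day 21 and 212 CPM in Non-NE. Htatip2 (0.98), Akr1b10 (0.94) and Icmt (0.92) were most like Hes1. Libraries of a group, and those that share reads, are not independent points.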

How the data were processed

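Poly(A) RNA was sequenced in 14 libraries. The submitters' processing notes name STAR 2.4.2, featureCounts and the mm10 genome. For the annotation and the strand setting nothing is given in the sources used here. Per gene symbol, the authors deposited raw counts, and all 14 of their columns were used. Libraries were grouped by their titles. Counts were scaled by TMM, filtered with filterByExpr and tested with edgeR's robust quasi-likelihood test (version 4.0.16, R 4.3.3). P-values were adjusted over all genes by Benjamini-Hochberg, and genes under 0.05 were called. NE and Non-NE were fitted in 6 libraries (12966 genes), the days in 8 (13996) and comparisons across both in 13, without NE replicate 2 (14820), because of its shared reads. Printed CPM use TMM factors over all 14 libraries. Exon lengths and coordinates are from GENCODE M21. A group at 0 allows 3 counts, and this floor and the 95% Poisson intervals cover counting error only. The 95% intervals of log2 changes are the change plus or minus a normal quantile times the SE. They are narrower than the quasi-likelihood test implies, and calls rest on the test alone. The scripts were tested on simulated data drawn with the fitted spreads. Between Non-NE and NE, 0 of 97 planted 2-fold changes and 40 of 95 planted 4-fold changes were recovered. For day 21 against day 0 these were 84 of 96 and 98 of 99. For the difference of changes they were 0 of 98 and 40 of 95. A 2-fold difference between Non-NE and NE could therefore go undetected.

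The members and lists were chosen with earlier results of these data known. Named were all 10 members, other pathway genes called with a log2 change of at least 1 and at least 5 CPM, the linked regulators Neurod1, Insm1, Rest, Yap1 and Myc, and the 3 genes most like Dll3, Notch2 and Hes1. Alternatives were DESeq2 1.42.0, its size factors, library totals, no count filter, a 2-fold minimum, all 14 libraries in 1 fit, the replicate block and leaving out each library. One further listed gene is not reported here.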

Additional observations from a re-analysis of the deposited data

Results flagged for a closer look

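For 6 genes the change from day 0 to day 21 differed from the change from NE to Non-NE, by an edgeR test of the difference itself in the 13 libraries without NE replicate 2. The log2 difference was 2.86 for Notch3 (adjusted p = 0.00999), 5.99 for Dll1, 3.68 for Dll3, 3.72 for Dll4 (adjusted p = 0.0381), 1.13 for Jag1 (adjusted p = 0.0186) and 6.66 for Jag2. The Dll4 difference was lost in 6 of the 9 fits that left out a library (adjusted p = 0.0659 to 0.166). The Jag1 difference was lost without day 0 replicate 1 (0.0540), day 0 replicate 2 (0.0774) or day 21 replicate 2 (0.0685), and those of Dll3 (0.0509) and Notch3 (0.0567) without day 0 replicate 2. A positive value is a day 21 change above the Non-NE change. On the Non-NE side, Dll1, Dll3 and Dll4 rest on 5, 4 and 7 counts in all. They passed the count filter through other groups, where they were higher. Notch3 was higher at day 21 than at day 0 in both libraries and lower in Non-NE than in NE in all 3. Jag1 rose under YAP5SA and did not pass the test between NE and Non-NE. Both sets of libraries enter each value, so a difference between sets and a difference between the changes cannot be told apart.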

How the results depend on the processing

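Between Non-NE and NE, 6 to 7 genes were called when a library was left out, 7 with the replicate block and 7 with no count filter. Deviations of same-numbered libraries from their group means correlated weakly (-0.0138 to 0.0466 in NE and Non-NE, -0.103 to 0.0379 across days). With 2 libraries a day, the values for matched and crossed numbers are equal with opposite sign. In so few libraries this check cannot decide whether the numbers pair them. The block ended 2 calls, Dll4 between Non-NE and NE (adjusted p = 0.0556) and Dll4 in the difference of changes (0.0524), and added Notch1 in that difference (0.0446); it changed no other call of the 10 genes. Crossing the numbers of day 21, an alternative chosen after seeing the data, gave 8 calls for day 21 against day 7, as did the uncrossed block. With all 14 libraries in 1 fit, calls were 0 for day 3 against day 0, 1 for day 7 against day 3, 1 for day 21 against day 7, 4 for day 7 against day 0 and 4 for day 21 against day 0. A 2-fold minimum left 0, 5 and 3 calls for the 3 steps from day 0 to day 3, to day 7 and to day 21. Leaving out a library gave 5 to 6, 8 to 8 and 7 to 8 calls for these steps, 7 to 7 for day 7 against day 0, 8 to 9 for day 21 against day 0, 7 to 9 for day 21 against Non-NE and 2 to 7 for the difference of changes.

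Signs turned in results that were not called, given here as log2 values. Jag1 between Non-NE and NE was -0.0169 with DESeq2 size factors, -0.0157 in the DESeq2 test, -0.26 by library totals, -0.00266 with the block and -0.14 to 0.30 without a library. Hes1 there was -0.0708 by library totals, -0.12 with the block and -0.27 to 0.75 without a library, and its difference of changes was -0.26 to 0.699 without a library. Dll1 at day 7 against day 0 was -0.00830 with all 14 libraries, -0.20 by library totals and -0.0309 to 0.0378 without a library. Jag1 was -0.0303 by library totals and -0.0305 to 0.0957 without a library at day 3 against day 0, and -0.0380 to 0.0836 without a library at day 21 against day 7. Jag2 was -0.0363 by library totals at day 7 against day 0. At day 7 against day 3 Jag2 was 0.00291 and 0.00295 with DESeq2 size factors and test, and -0.0323 to 0.0222 without a library. Dll4 at day 3 against day 0 was -0.753 to 0.0574 without a library. The cause was not tested.

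Scaling by library totals moved the median of all genes by -0.26 between Non-NE and NE, -0.20 and -0.14 for days 7 and 21 against day 0, -0.14 for day 7 against day 3 and 0.18 in both comparisons across sets. It changed the split of all genes called between Non-NE and NE from 2594 higher and 2960 lower to 1930 and 3757, and left the split of the Notch genes at 2 and 6. It moved the split of all genes called also for day 3 against day 0 (3222 higher and 3706 lower for 3673 and 3131), day 21 against day 7 (4228 and 2855 for 3654 and 3388), days 7 and 21 against day 0 (4149 higher and 6116 lower, 4470 and 5759, in place of 5208 and 4724, 5273 and 4759), day 7 against day 3 (3140 and 5076 for 4128 and 3657), day 21 against Non-NE (5246 and 2845 for 4565 and 3636) and the difference of changes (3602 and 1203 for 3149 and 1715). Over all genes, 1 fit of all 14 libraries called 8997 between Non-NE and NE for 5554, and for days 3, 7 and 21 against day 0 1041 for 6804, 4589 for 9932 and 4586 for 10032. It called 1281 for 7785 at day 7 against day 3 and 515 for 7042 at day 21 against day 7. For the difference of changes 2954 genes were called with NE replicate 2 kept and day 0 replicate 1 left out, for 4864. At 6730816 to 10659524 counts a library, Notch1 across days and Dll1, Dll3 and Dll4 in Non-NE were at the edge of detection.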
